A study of Mus musculus with 7 samples.

Results

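The genes described here make and regulate the steroid hormones of the testis, together with hormone and receptor genes of Leydig cells, the steroid-producing cells that lie between the seminiferous tubules. They were chosen by name, as 10 genes, and every array feature (probe set) annotated to exactly 1 of them was kept. Of these 10 genes 8 had such a probe set, out of 18336 genes with one in the whole series. Star, Cyp11a1, Cyp17a1, Hsd3b1, Hsd17b3 and Hsd11b1 were measured on both array designs and Hsd3b6 and Insl3 on the testis arrays only, by 11 probe sets there and 10 on the other design. Cyp19a1 and Lhcgr were not analysed here. RNA was measured on 7 single-colour arrays, 1 for each group. The groups were primary Sertoli cells of ERM knockout mice at 10 weeks, of ERM knockout mice at 4 weeks and of wild-type mice at 4 weeks, whole testis of ERM knockout and of wild-type mice at 4 weeks, and the TM4 cell line with and without transfection of ERM. ERM is the ETS transcription factor encoded by Etv5, and TM4 is an established mouse line of Sertoli cell origin. The sources used here give neither the strain of the mice, nor the part of the gene that was removed, nor whether animals were pooled.

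Leydig cells take up cholesterol and convert it to testosterone under the control of luteinising hormone, which acts through the receptor encoded by Lhcgr. Star carries cholesterol to the inner mitochondrial membrane, where Cyp11a1 cleaves its side chain to give pregnenolone. The dehydrogenases Hsd3b1 and Hsd3b6 and the hydroxylase and lyase Cyp17a1 turn pregnenolone into androstenedione, Hsd17b3 reduces this to testosterone, and the aromatase Cyp19a1 makes oestrogen from androgens. Hsd11b1 interconverts active and inactive glucocorticoids. Insl3 is a peptide hormone of Leydig cells that acts on testis descent.

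Intensities were brought to a trimmed mean of 500 on every array (the 2nd to the 98th percentile), and readings below a floor of 100 count as not measurable here. All levels below are these scaled intensities, and they compare arrays for 1 probe set, not 1 probe set with another. With 1 array per group there was no replicate check, no test across samples could be run, and precision is limited by the number of arrays. The only available error is the spread of log2 ratios between probe sets of the same gene on the same pair of arrays. Its standard deviation (SD) was 0.26 in testis, 0.24 between Sertoli knockout and wild type at 4 weeks, 0.22 between knockout at 10 weeks and wild type at 4 weeks, 0.28 between the knockout ages and 0.18 in TM4. It was taken only from probe sets averaging 500 or more over the pair of arrays. Several members were dimmer, and whether it holds for them was not tested. This SD says nothing about how animals or cultures vary. The share of probe sets at the floor or above was 72.0% to 77.0% on the Sertoli and TM4 arrays, and 82.1% and 82.2% on the knockout and wild-type testis arrays. None of the 3 Etv5 probe sets was lower on an array labelled ERM knockout than in wild type (ratios of 1.05 to 1.28 at 4 weeks and 1.23 to 1.56 at 10 weeks), so these probe sets do not bear out the knockout labels, and whether they lie in the removed part is unknown. Knockout below means an array labelled ERM knockout. With ERM transfection the Etv5 ratios were 1.13 to 1.51.

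Sertoli cell markers were measured by 13 genes, all of them at the floor or above on the 4-week Sertoli arrays and 12 at 10 weeks, where Espn was below it. On each TM4 array 11 of the 13 reached it. The markers below the floor were Wt1 and Fshr with ERM, and Sox9 and Wt1 without. Markers of other cells were also read in the primary preparations. Germ cell markers, 10 in all, summed to 4061 at 10 weeks, 21260 in knockout and 21284 in wild type at 4 weeks. Macrophage markers, 13 in all, summed to 10384, 6331 and 14288 on the same arrays. In the TM4 line, with and without ERM, germ cell markers summed to 2856 and 3129, and macrophage markers to 4407 and 4333. Sums near those of TM4 therefore do not show RNA of other cells. The cell of origin of the steroid gene signal was not tested. In such bulk RNA, fewer cells of a type and less RNA per cell cannot be told apart.

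The upstream sequences of Cyp11a1 and Hsd11b1 are shown because these members read in opposite directions on the 4-week Sertoli arrays and hold the sequence cores searched for. They are the 250 bases before an annotated start, from RefSeq on build GRCm38.p6, and the capitals mark AGGTCA, the core of the site bound by Nr5a1 and other nuclear receptors, or GGAAGT, a core ETS sequence, on either strand (both searched). The first is called the receptor core and the second the ETS core below. For Cyp11a1 the sequence lies at chr9:58014702-58014951 on the plus strand, and for Hsd11b1 at chr1:193242361-193242610 on the minus strand.
Cyp11a1: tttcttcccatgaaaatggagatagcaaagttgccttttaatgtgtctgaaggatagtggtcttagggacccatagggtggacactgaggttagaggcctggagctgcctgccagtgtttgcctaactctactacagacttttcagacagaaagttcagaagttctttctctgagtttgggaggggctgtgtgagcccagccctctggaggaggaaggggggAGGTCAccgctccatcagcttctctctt
Hsd11b1: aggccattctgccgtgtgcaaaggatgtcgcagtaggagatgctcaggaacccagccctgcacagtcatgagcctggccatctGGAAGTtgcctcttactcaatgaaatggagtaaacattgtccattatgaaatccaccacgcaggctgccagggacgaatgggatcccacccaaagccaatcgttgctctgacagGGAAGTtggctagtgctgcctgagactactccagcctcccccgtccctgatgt
The Cyp11a1 window held 1 receptor core, which began 28 bases before the start, and no ETS core. The Hsd11b1 window held 2 ETS cores, beginning 167 and 53 bases before the start, and no receptor core. The receptor core was present in 14.0% and the ETS core in 19.7% of all 32851 upstream windows of this length. Of 11 windows for 8 members, 3 held the receptor core (in Cyp11a1, Cyp19a1 and Lhcgr) and 1 held the ETS core. These 8 are not the 8 members measured on the arrays. They include Cyp19a1 and Lhcgr, and no window was available for Star or Cyp17a1. The TATA box letters TATAAA were found in 2 of the 11, both of Cyp19a1, against 12.4% of all windows. No marked stretch overlaps another, and a match describes the sequence only. Cyp11a1 has another annotated start, whose window held none of these motifs.

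In whole testis at 4 weeks, 7 of 8 members read higher on the ERM knockout array and all were within 2-fold of wild type. Of all 7515 genes with a ratio, 47.9% had a log2 ratio above 0, and the shares past 2-fold were 0.532% upward and 0.852% downward. The median log2 ratio of the members was 0.28, beside -0.01 over all genes. Star, the cholesterol carrier at the start of the pathway, read 417 in knockout against 323 in wild type on 92213_at and 223 against 200 on 161784_f_at. Both Star probe sets were thus higher in knockout, by 1.29-fold and 1.12-fold. Cyp11a1, which makes pregnenolone, read 2052 in knockout and 1880 in wild type, a log2 ratio of 0.13 that is smaller than the probe set SD.

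The middle steps of the pathway differed more between probe sets. Cyp17a1 read 3677 in knockout against 3218 in wild type on 102416_at (log2 ratio 0.19) and 1522 against 2250 on 161721_f_at (log2 ratio -0.56). The probe sets of Cyp17a1 therefore disagreed on the direction, and their mean log2 ratio was -0.19. Hsd3b1 read 1318 in knockout and 1084 in wild type on 103072_at, a log2 ratio of 0.28. Its other probe set, 161261_f_at, read 113 in knockout and 69.0, below the floor, in wild type. Hsd3b6, the isoform of adult Leydig cells in the mouse, gave the highest ratio of the 8 members, 1.64-fold, with 1235 in knockout against 752 in wild type. The suffix of that probe set, 102729_f_at, marks possible cross-hybridisation, and the Hsd3b genes are close relatives.

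Hsd17b3, the last step to testosterone, read 881 in knockout and 722 in wild type (log2 ratio 0.29). Hsd11b1 read 425 in knockout against 285 in wild type, 1.49-fold higher. Insl3 was the 1 member lower in knockout, at 264 against 404, a ratio of 1.53-fold on a single probe set, 162394_r_at. The log2 ratios of Hsd3b6 (0.72), Hsd11b1 (0.57) and Insl3 (-0.62) were each larger than the probe set SD, in opposite directions for Insl3 and the other 2. Hsd11b1 and Insl3 were dimmer than the probe sets that gave this SD.

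**Figure D1:**
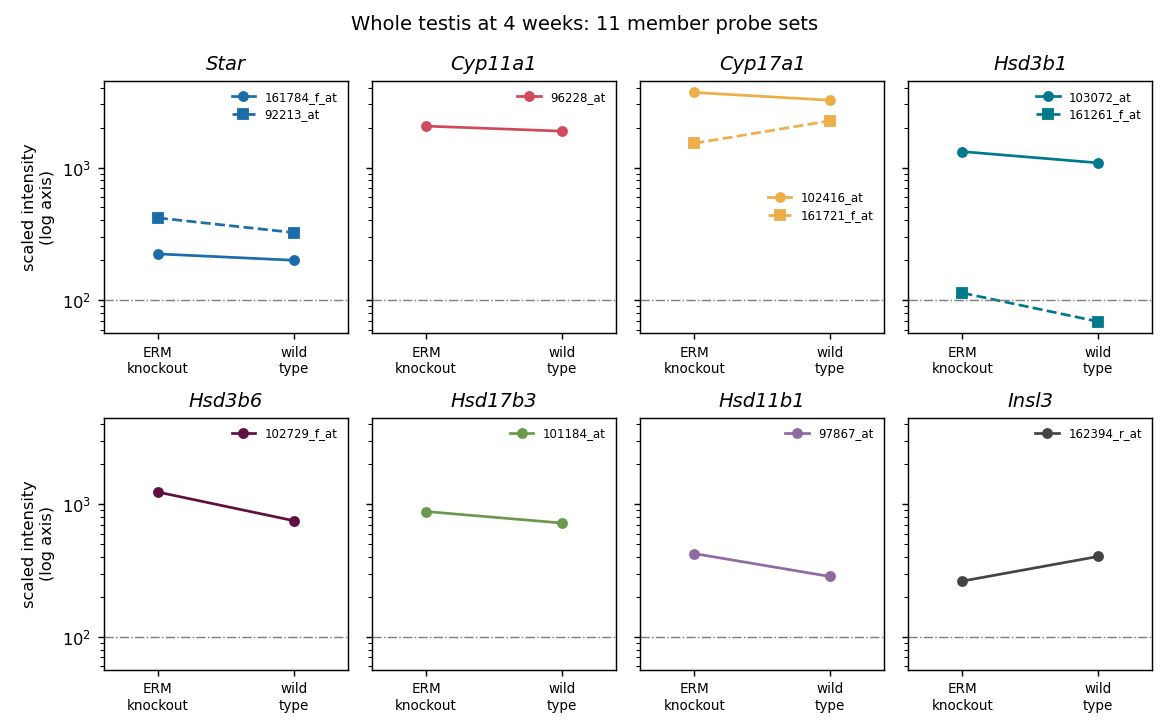
Scaled intensity (log axis) of the 11 probe sets of 8 steroid and Leydig genes in whole testis at 4 weeks, ERM knockout on the left and wild type on the right, 1 array each; the dash-dotted line is the floor of 100. Lines join the readings of a probe set. Insl3 and 1 of the probe sets of Cyp17a1 slope the other way from the rest.

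Marker lists of Sertoli cells, macrophages and fibroblasts also had medians above 0 on the testis arrays. Sertoli cell markers had a median log2 ratio of 0.66 over 11 genes, with 8 above 0 and 3 below. The inhibin genes Inhbb (0.97) and Inha (0.79) had the largest ratios, and the lowest was -0.70. The 11 Sertoli cell markers summed to 16738 in knockout and 12756 in wild type, and all 11 reached the floor on both arrays. Macrophage markers summed to 5854 in knockout and 4124 in wild type, with 12 of 13 at the floor or above and Cd53 below it on both arrays. Of these 12 genes 10 were above 0, with Aif1 (0.88) and Cd74 (0.87) highest and the lowest at -0.33. Fibroblast markers summed to 5195 and 3307, with Lum below the floor on both arrays and Dcn (1.03) and Col3a1 (0.55) in front. The members themselves summed to 10269 in knockout and 8668 in wild type. Germ cell markers summed to 52274 in knockout and 50070 in wild type, and their median log2 ratio was 0.11 with 6 of 9 above 0. Dazl stood at -1.76 and Sycp1 at -0.87 among them, and Sycp3 was below the floor on both arrays. The part of these cells in the members' ratios was not tested.

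In primary Sertoli cells at 4 weeks, Cyp17a1 was 3.11-fold higher and Hsd11b1 2.08-fold lower on the ERM knockout array, and the other 4 members were within 2-fold. Of all 15860 genes with a ratio, 0.681% passed 2-fold upward and 3.18% downward. The members' median log2 ratio was 0.30 with 4 of 6 above 0, beside -0.02 and 48.2% over all genes. Cyp17a1 read 364 in knockout and 117 in wild type on its single probe set, 1417017_at. The wild-type reading lay just above the floor, and with a floor of 0.4 times the trimmed mean it fell below the floor, leaving a log2 ratio of at least 0.86. Hsd11b1 read 248 in knockout against 516 in wild type, a log2 ratio of -1.06 that became -0.94 under quantile normalization.

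Star had the same direction on all its probe sets. It read 2098 in knockout and 1286 in wild type on 1418728_at. On 1418729_at it read 1516 in knockout and 1030 in wild type, and on 1449201_at 1305 and 944. The log2 ratios were 0.71, 0.56 and 0.47, so that all 3 were higher in knockout and none reached 2-fold. Cyp11a1 read 669 in knockout and 491 in wild type on 1448804_at (log2 ratio 0.44), and its other probe sets, 1439947_at and 1457604_x_at, lay below the floor on all 5 arrays of this design. Hsd17b3 read 412 in knockout and 370 in wild type, a log2 ratio of 0.16, which is less than the probe set SD. Hsd3b1 was lower, at 188 in knockout against 265 in wild type (log2 ratio -0.49). The genes of the route from cholesterol to testosterone were therefore not uniform, with Star, Cyp11a1 and Cyp17a1 above wild type and Hsd3b1 below it.

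At 10 weeks all 6 members read higher in knockout Sertoli cells than at 4 weeks, with a median log2 ratio of 0.74, beside -0.03 over all genes and 46.8% of genes above 0. Cyp17a1 was the 1 member past 2-fold, where 4.19% of all 15849 genes passed 2-fold upward and 3.51% downward. It read 1175 at 10 weeks and 364 at 4 weeks, a ratio of 3.23-fold. Star read 2896 at 10 weeks and 2098 at 4 weeks on 1418728_at, 2463 and 1516 on 1418729_at, and 2165 and 1305 on 1449201_at, which gave log2 ratios of 0.47, 0.70 and 0.73. Cyp11a1 read 1182 at 10 weeks and 669 at 4 weeks, 1.77-fold higher. Hsd17b3 followed at 672 against 412 (1.63-fold), Hsd11b1 at 422 against 248 (1.70-fold) and Hsd3b1 at 287 against 188 (1.53-fold).

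Set against the wild-type array at 4 weeks, the 10-week knockout array gave at least 2-fold higher readings for 3 of 6 members, Star, Cyp11a1 and Cyp17a1, where 1.62% of all 15911 genes were that much higher and 4.22% that much lower. The log2 ratio was above 0 for 5 of 6 members, beside 46.6% of all genes. Cyp17a1 read 1175 in knockout at 10 weeks against 117 in wild type, 10.1-fold higher. With a floor of 0.4 times the trimmed mean this became a log2 ratio of at least 2.56. Cyp11a1 was 2.41-fold higher, at 1182 against 491. Star was 2.25-fold higher on 1418728_at, 2.39-fold on 1418729_at and 2.29-fold on 1449201_at. Hsd17b3 was 1.82-fold higher, Hsd3b1 read 287 against 265, and Hsd11b1 read 422 against 516. Genotype and age differ together between these arrays and cannot be told apart. The 3 Sertoli comparisons share arrays, so their ratios are not independent of each other.

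**Figure D2:**
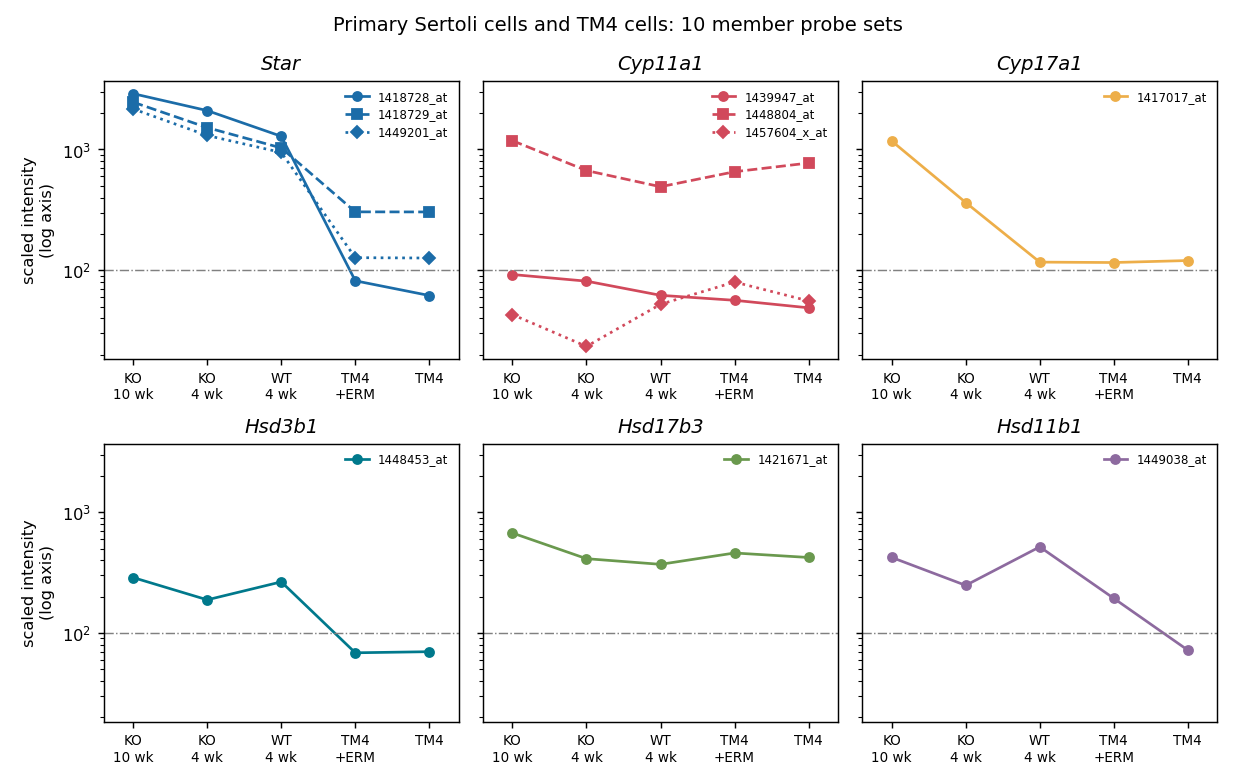
Scaled intensity (log axis) of the 10 probe sets of 6 steroid genes on the 5 Sertoli and TM4 arrays, from left to right knockout (KO) at 10 weeks, KO at 4 weeks, wild type (WT) at 4 weeks, TM4 with ERM and TM4 without; the dash-dotted line is the floor of 100. The 3 probe sets of Star and that of Cyp17a1 stand highest in knockout at 10 weeks and step down to wild type, and Hsd11b1 is highest in wild type.

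Marker lists of other cell types also differed between the Sertoli arrays. At 10 weeks 9 of 10 germ cell markers were at least 2-fold lower than in knockout at 4 weeks, with Ddx4 at 268 against 2124, and their median log2 ratio was -2.63. Sycp1 lay below the floor at 10 weeks. Macrophage markers summed to 10384 at 10 weeks and 6331 at 4 weeks, with 12 of 13 at the floor or above on each array and C1qa below it. Peritubular muscle markers summed to 11575 at 10 weeks, 8694 in knockout and 7066 in wild type at 4 weeks, and Tagln was below the floor in knockout at 4 weeks only. Acta2 made up most of each sum, at 10026, 7409 and 5799. In TM4, with and without ERM, the list summed to 13943 and 12388, above every primary array. Between the knockout ages all 6 of these markers were above 0, with a median log2 ratio of 0.29. Between knockout and wild type at 4 weeks the macrophage markers Cd53 (log2 ratio -3.05) and Ctss (-3.02) had the largest ratios of their list. The macrophage median was -0.84, with 2 of 13 above 0. The fibroblast markers Col3a1 (-1.41) and Dcn (-1.04) were lower, and their other probe sets with a ratio gave bounds of -0.10 and -0.05. The fibroblast median was -0.68, with 1 of 4 above 0. Among germ cell markers Prm2 stood at 1.04 and Ddx4 at -0.72 in that comparison, with a median of 0.02 and 5 of 10 above 0. Among Sertoli cell markers Espn stood at 1.19 and Dmrt1 at -1.11. The Sertoli cell median was 0.29 there, with 10 of 13 above 0. Fibroblast markers summed to 7492, 4617 and 8457 on the arrays of knockout at 10 weeks, knockout at 4 weeks and wild type. Lum was below the floor on all of them. In TM4, with and without ERM, the fibroblast list summed to 21676 and 24344, above every primary array. Between the knockout ages Dcn had a log2 ratio of 1.02, but the fibroblast median was -0.17, with 1 of 4 above 0. Endothelial markers, 5 in all, summed to 865, 610 and 608 on the 3 primary arrays. Pecam1 and Tek were below the floor on all 3, and Tie1 in wild type as well. Of the 4 adrenal cortex markers with a probe set, Cyp11b1 and Mc2r lay below the floor on all 3 arrays, Cyp11b2 did so in knockout at 4 weeks, and the 4 summed to 379, 442 and 443. The part of any of these cells in the members' ratios was not tested. Sertoli cell markers had a median log2 ratio of -0.09 between the knockout ages, with 4 of 13 above 0. Gata1 (-1.22) and Espn (a bound of -1.68) were at least 2-fold lower among them, and none was at least 2-fold higher.

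**Figure D3:**
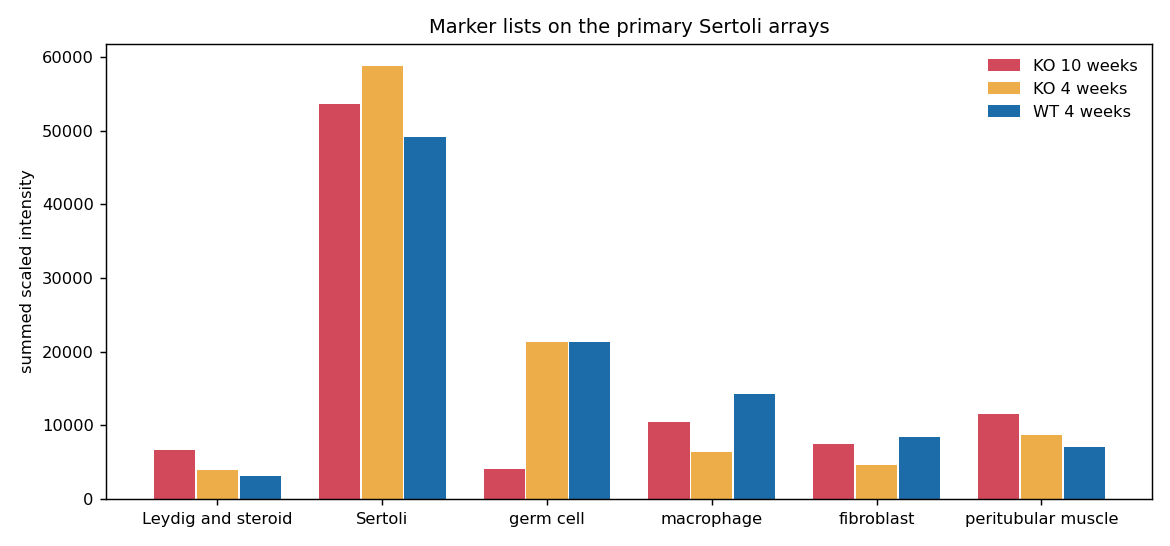
Summed scaled intensity of marker lists on the 3 primary Sertoli arrays, with knockout at 10 weeks, then knockout at 4 weeks, then wild type at 4 weeks in each group; bars compare arrays within a list, since lists differ in size. The Leydig and steroid sum was 6636, 3978 and 3045 in that order, and the germ cell sum was 4061, 21260 and 21284.

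In TM4 cells 2 of the 6 members were below the floor on both arrays by their brightest probe set, and none of the 4 with a ratio reached 2-fold with ERM, where 0.303% of all 16158 genes passed it upward and 0.421% downward. The ratio was upward for 2 of these 4, beside 50.8% of all genes with a log2 ratio above 0. Star on 1418728_at read 81.8 with ERM and 61.8 without, both below the floor. Its other probe sets were flat, at 304 and 304 on 1418729_at and 127 and 126 on 1449201_at. Hsd3b1 lay below the floor at 68.5 with ERM and 70.0 without. Cyp17a1 read 116 with ERM and 120 without. Cyp11a1 read 654 with ERM and 772 without, a log2 ratio of -0.24, and Hsd17b3 459 and 422 (0.12). Hsd11b1 read 193 with ERM, while its reading of 72.1 without ERM lay below the floor, so it was at least 1.93-fold higher. With a floor of 0.1 times the trimmed mean the log2 ratio of Hsd11b1 was 1.42, past 2-fold. The members' median was 0.03, beside 0.00 over all genes.

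Levels over the 5 arrays of this design separated the primary cells from the line for some members only. Star on 1418728_at and Hsd3b1 were at least at 1286 and 188 in every primary preparation and below the floor in TM4. Cyp11a1 in TM4, at 654 and 772, lay between the readings of the wild-type array and the 10-week knockout array, and Hsd17b3 in TM4, at 459 and 422, likewise. Cyp17a1 in TM4 was close to wild-type Sertoli cells, at 116 and 120 beside 117.

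**Figure D4:**
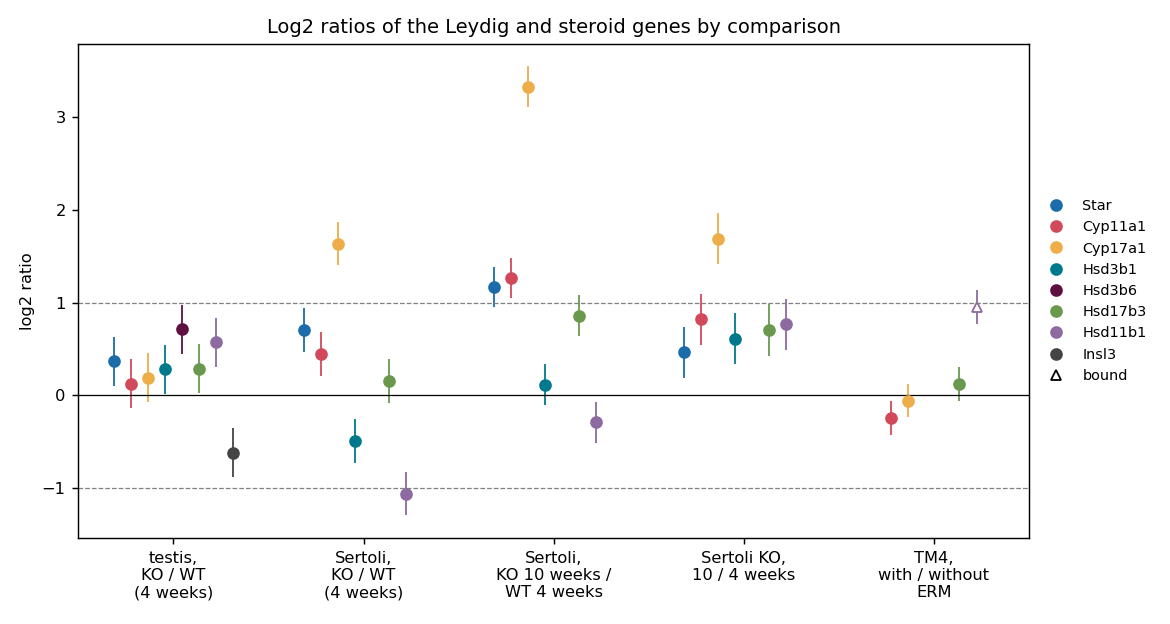
Log2 ratio of each steroid and Leydig gene in the 5 comparisons, from the brightest probe set of each gene; bars show 1 SD between probe sets of the same gene, not between animals, dashed lines mark 2-fold, and the open triangle is a lower bound. The SD comes only from probe sets averaging 500 or more. Cyp17a1 stands at 1.64, 3.33 and 1.69 in the 3 Sertoli comparisons and at 0.19 in testis.

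The wider pathway was described by lists of genes for cholesterol supply and electron donors, other steroid enzymes, transcription regulators, signals and their receptors, and steroid receptors. Genes that supply cholesterol or electrons had a median log2 ratio of 0.26 in testis, with 8 of 9 above 0 and 1 at least 2-fold higher. This was Lipe, the hormone-sensitive lipase that frees cholesterol from its esters, at 1291 in knockout and 590 in wild type (2.19-fold). Cyb5a, a cytochrome b5 that aids the lyase step of Cyp17a1, read 1737 in knockout and 1029 in wild type, 1.69-fold higher. Scarb1, the receptor for high-density lipoprotein, was at 0.36 and Stard3 at 0.30. In Sertoli cells at 4 weeks the median was 0.23 with 7 of 11 above 0 and none past 2-fold by the brightest probe set. Scarb1 led there, at 3635 in knockout and 1979 in wild type, and its 3 probe sets had log2 ratios of 0.88, 0.88 and 1.05. Lipe (0.52), Fdx1, the ferredoxin that passes electrons to Cyp11a1 (0.47), and Cyb5r3 (0.47) were next. Between the knockout ages the list's median was -0.11 with 4 of 11 above 0, and Scarb1 stood at -0.58.

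Transcription regulators of steroid genes had a median log2 ratio of 0.11 over 12 genes in testis, all within 2-fold, and of -0.21 over 13 genes in Sertoli cells at 4 weeks, where 2 passed 2-fold downward and none upward. Nr5a1, the nuclear receptor that drives most steroid enzyme genes, read 1301 in knockout and 1419 in wild-type testis on its brightest probe set, with log2 ratios of 0.13, 0.30 and 0.37 on 3 others. In Sertoli cells Nr5a1 read 466 in knockout at 10 weeks, 451 in knockout at 4 weeks and 296 in wild type on 1418315_at. In TM4 that probe set lay below the floor, at 49.1 with ERM and 52.0 without. The other, 1421730_at, went the opposite way. It read 106 with ERM and 133 without in TM4, and 84.4, 82.0 and 87.7, below the floor, in Sertoli cells. Nr0b1, a repressor of Nr5a1, read 683 in knockout and 428 in wild-type testis (log2 ratio 0.68), and in Sertoli cells 199 at 10 weeks, 417 in knockout at 4 weeks and 236 in wild type. Nr4a1, an immediate early nuclear receptor induced by luteinising hormone in Leydig cells, was 3.03-fold lower in Sertoli knockout at 4 weeks, at 126 against 383. Gata4 was higher there on both probe sets, with log2 ratios of 0.93 and 0.98. Gata6 gave -0.90, 0.57 and 0.38 across its 3 probe sets, and Nr2f2 was at least 2.20-fold lower on the brightest, where knockout read 82.1 and was below the floor, with 0.33, 0.25 and -0.97 on others, so neither had a settled direction. In testis Nr2f2 (0.60), Gata6 (0.41) and Lhx9 (0.26) were the next after Nr0b1. The other measurable Gata6 probe set gave 0.08 in testis. Between the knockout ages Nr4a1 (1.48) and Nr4a3 (1.15) were at least 2-fold higher and Nr0b1 (-1.07) at least 2-fold lower, named here after their values were seen. Another probe set of Nr4a3 gave 0.23.

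Among signals and receptors of Leydig cells, Pdgfra, a growth factor receptor of Leydig precursors, was 2.26-fold higher in knockout testis on its brightest probe set, at 793 against 350, and had a log2 ratio of -0.05 on another. It was the 1 of 8 genes past 2-fold, and the median was 0.17. Igf1r (0.68), Fgfr1 (-0.38) and Dhh, the Sertoli cell signal for Leydig differentiation (0.21), followed. The other measurable Dhh probe set gave -0.05. In Sertoli cells at 4 weeks the median was -0.43 over 9 genes with 2 above 0. Fgfr1 was 2.87-fold lower in knockout, at 127 against 364, and its other measurable probe set gave -0.68 on the log2 scale. Pdgfra stood at -0.81, Igf1 at -0.78 and Pdgfa at 0.93, with -0.03 on the other Pdgfa probe set. Between the knockout ages the list had a median of 0.62, with 7 of 9 above 0 and Fgfr1 at 1.39 on the brightest probe set and 0.72 on the other. Steroid receptors and the androgen-binding globulin Shbg had medians of 0.02 in testis (4 genes), -0.06 in Sertoli cells at 4 weeks (5 genes) and -0.01 between the knockout ages (6 genes), with none past 2-fold by the brightest probe set. In testis Esr1 was at 0.50 on its brightest probe set and -0.01 on the next brightest, with a bound of -0.50 on another that was below the floor in knockout, Esr2 at -0.36, Shbg at 0.19 and Pgr at -0.16. In Sertoli cells at 4 weeks Nr3c2 was at least 1.67-fold higher, Nr3c1, the glucocorticoid receptor, at -0.59 on its brightest probe set and -1.16 on another, Shbg at 0.20 and Esr2 at -0.19.

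Other steroid enzymes had medians of 0.13 in testis (6 genes), -0.04 in Sertoli cells at 4 weeks (13 genes) and 0.10 between the knockout ages (12 genes). In testis none was past 2-fold, and Hsd17b12 (0.45), Hsd17b1 (at least 1.17-fold higher), Cyp21a1 (-0.17) and Hsd17b4 (0.17) had the largest ratios. In Sertoli cells Hsd3b7, an enzyme of bile acid synthesis, was 2.38-fold lower in knockout at 4 weeks, at 387 against 922. Hsd3b5 (0.68) and Hsd11b2 (0.48), which inactivates glucocorticoids, were higher. Sult1e1, the oestrogen sulfotransferase, read 512 in knockout at 10 weeks, 70.2 in knockout at 4 weeks and 152 in wild type. It was at least 5.12-fold higher at 10 than at 4 weeks, and Hsd3b5 was 2.08-fold lower.

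**Figure D5:**
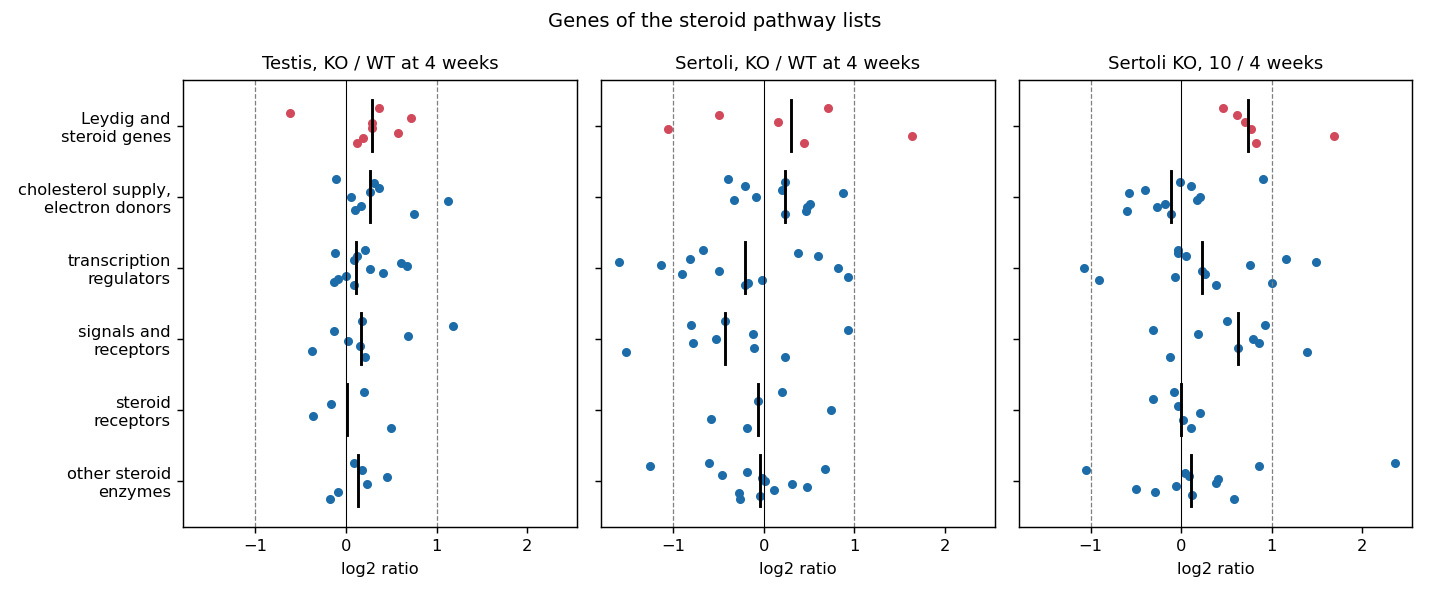
Log2 ratio of each gene of the steroid pathway lists in testis, in Sertoli cells at 4 weeks and between the knockout ages, each gene from its brightest probe set; black bars are medians, dashed lines mark 2-fold, and the 10-gene list of members is in red. Between the ages all 6 members lie above 0 with a median of 0.74. The medians of the other lists there run from -0.11 (cholesterol supply and electron donors) to 0.62 (signals and receptors).

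The genes whose pattern over the 5 Sertoli and TM4 arrays was most like that of each member were sought among 9873 genes reaching 500. Genes with only a clone or provisional name were left out of the search. Likeness was the root mean square difference of centred log2 intensities, with readings below the floor set to it and no scaling by a gene's range. Star was closest to Chdh (0.07), Igfbp3 (0.11) and Cyb561 (0.17). Chdh, choline dehydrogenase, read 2926 in knockout at 10 weeks, 2009 in knockout at 4 weeks and 1431 in wild type, and lay below the floor in TM4 at 93.1 with ERM and 95.4 without. Cyp11a1 was closest to Ddah1 (0.09), Trip6 (0.10) and Htra2 (0.13), and Hsd17b3 to Pam, Adk and Twsg1 (0.06 each). Hsd11b1 was closest to Cpeb2 (0.23), Mgp (0.25) and Tmem38b (0.26). Cyp17a1 had no such close match among the genes searched, the nearest being Pdlim4 (0.46), Pdia5 (0.57) and Ndrg2 (0.60). The Ndrg2 reading in wild-type Sertoli cells was 1.67, far below the floor. Hsd3b1 did not reach 500 and was left out of this search.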

How the data were processed

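Affymetrix arrays of mouse testis, Sertoli cells and TM4 cells were used, 1 per group, grouped by their labels. The authors deposited an intensity for each probe set, on a linear scale and never below 1. The software, scaling and genome build behind it were not given in the sources used here. Values were scaled, floored at 0.2 of the trimmed mean and compared within each of the tables (12488 and 45101 probe sets). Where 1 array was below the floor the ratio is given as a bound, and where both were, no ratio was formed. The platform annotation named exactly 1 gene for 10833 and 34945 probe sets. A gene's brightest probe set over its table stood for it in counts and medians.

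The text names all members, up to 4 genes of each pathway list and 2 of each marker list by size of ratio in testis and in Sertoli cells at 4 weeks, Nr5a1, and the 3 most similar genes of each member reaching 500. Also named are markers below the floor. Named after their values were seen are pathway genes and Sertoli cell markers past 2-fold between the knockout ages, Ddx4 at 10 weeks, and Acta2. The members and lists were chosen with earlier results of these data known. The 7 alternatives were unscaled values, centred ratios, quantile normalization, floors at 0.1 and 0.4 of the trimmed mean, averages over a gene's probe sets, and omission of probe sets with a suffix for shared sequence or relaxed probe selection. Scaling, the choice of the brightest probe set and the gene ratios were tested on simulated data, and the other steps were not. Python 3.11.15 was used with numpy 2.4.6, pandas 2.3.3 and, for figures, matplotlib 3.10.9.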

Additional observations from a re-analysis of the deposited data

Results flagged for a closer look

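Hsd11b1 and Hsd3b1 differed in opposite directions between the arrays labelled ERM knockout and wild type in Sertoli cells and in testis at 4 weeks. Hsd11b1 had a log2 ratio of knockout to wild type of -1.06 in Sertoli cells and 0.57 in testis. Hsd3b1 had -0.49 in Sertoli cells and 0.28 in testis. Each ratio rests on 1 array per group and on different array designs, and the difference between the tissues was not tested.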

How the results depend on the processing

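The medians of the members moved by less than the probe set SD under all 7 alternatives, and their counts past 2-fold changed in 3 cases. With a floor of 0.4 times the trimmed mean, 0 members instead of 1 were at least 2-fold higher in Sertoli cells at 4 weeks, since the wild-type reading of Cyp17a1 was then below the floor. Under quantile normalization 0 instead of 1 were at least 2-fold lower there (Hsd11b1 at -0.94). In TM4, 1 instead of 0 was at least 2-fold higher with a floor of 0.1 times the trimmed mean (Hsd11b1). Of 206 single member ratios under the alternatives 202 moved by less than the probe set SD, 4 by more, and none past 2-fold changed sign. The 4 were Cyp17a1 in testis (-0.19 as a mean over probe sets), in Sertoli cells at 4 weeks (0.86) and at 10 weeks against wild type (2.56), both at the higher floor, and Hsd11b1 in TM4 (1.42 at the lower floor). Star in TM4 had a ratio only at the lower floor (0.40) and as a mean over probe sets (0.01), and Hsd3b1 only at the lower floor (-0.03). Hsd3b6 and Insl3 had no ratio once probe sets with a suffix for shared sequence or relaxed selection were left out. No paired analysis was possible because each group has 1 array, and for the same reason no array could be left out. Dim readings limit Cyp17a1 in wild-type Sertoli cells and Star, Hsd3b1 and Hsd11b1 in TM4.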

Other observations

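Some probe sets naming a member together with other genes were left out of the results above, since their signal cannot be assigned. One that lists both Jak3 and Insl3, 1423021_s_at, read 9047 in Sertoli ERM knockout at 10 weeks, 1835 in knockout at 4 weeks and 2883 in wild type, and in TM4 599 with ERM and 557 without. The other Sertoli array probe set with the same pair of names, 1427092_at, lay below the floor on all 5 arrays. One that lists Hsd3b6, Hsd3b3 and Hsd3b2, 1460232_s_at, read 476 in knockout at 10 weeks, 342 in knockout at 4 weeks and 347 in wild type, and in TM4 397 with ERM and 301 without. On the testis arrays the probe set naming Jak3 and Insl3, 101873_at, lay below the floor, at 88.9 in knockout and 76.5 in wild type.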
